A study of Mus musculus with 4 samples.

Results

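The cells described here are day 6 embryoid body (EB) cells of LSD1 KO that carried RNA of 3 or more of the genes Six6, Zic1, Crabp1, Sox1 and Pax6. They were selected on their own counts. A barcode had to hold at least 2000 unique molecular identifiers (UMIs, each marking 1 captured RNA molecule) and 1000 genes, at least 1 UMI in 3 or more of the 5 marker genes, and fewer than 10 UMIs of Dppa5a, a gene of pluripotent cells. The rule found 117 marker-positive cells among 7300 LSD1 KO cells past the depth filter, which were part of 17298 such cells in the series. LSD1 KO replicate 1 gave 35 of 4850 cells and replicate 2 gave 82 of 2450.

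The series holds 4 libraries of single cells, 2 from WT and 2 from LSD1 KO EBs, and the study calls the replicates biological. Both genotypes are V6.5 mouse embryonic stem cells (ESCs), and the KO line lacks the promoter and the first exon of Kdm1a, the gene of the histone demethylase LSD1. EBs are aggregates in which ESCs differentiate without directing signals, here formed in hanging drops in serum medium without the factors that hold ESCs undifferentiated, and then dissociated into single cells. The study's methods name 2 independent KO clones for bulk RNA-seq, and whether these also gave the single-cell libraries is not stated. Kdm1a was at 217 and 229 CPM (UMIs scaled by the total of the cells summed, as a share of 1e6) over all WT cells past the filter and at 1.09 and 0.835 CPM over all LSD1 KO cells. Its 3′ tags lie outside the deleted part.

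When neural tissue forms, progenitors first switch on general factors such as Sox1 and then factors that mark position along the head-to-tail and back-to-belly axes. Six6 is a homeobox factor of the developing eye and hypothalamus, and Zic1 is a zinc finger factor of the dorsal neural tube. Pax6 is a paired-box factor of the eye, forebrain and neural tube, and Sox1 is a factor of the neural plate. Crabp1 binds retinoic acid in the cytoplasm and is abundant in parts of the embryonic hindbrain and neural crest. In mm9, Six6 lies on chromosome 12 from 74040932 to 74045886 on the plus strand and Crabp1 on chromosome 9 from 54612555 to 54620917 on the plus strand. Pax6 lies on chromosome 2 from 105509053 to 105543317 on the plus strand. Zic1 lies on chromosome 9 from 91252896 to 91260648 on the minus strand, and its start overlaps that of Zic4 (91257251 to 91284186) on the plus strand. All 4 are annotated as protein-coding genes.

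Marker-positive cells made up 0.722% of LSD1 KO replicate 1 (exact binomial 95% interval 0.503 to 1.002%) and 3.35% of replicate 2 (2.67 to 4.14%), a mean of 2.03% ± 1.86 (SD, n = 2). The same rule found 4 of 3660 cells in WT replicate 1 (0.109%, interval 0.0298 to 0.280%) and 10 of 6338 in WT replicate 2 (0.158%, interval 0.0757 to 0.290%). Both LSD1 KO shares were above both WT shares. Zic1, 1 of the markers, had only 3 and 2 UMIs over all WT cells, so the marker set itself favored LSD1 KO. With Zic1 left out of the markers, the WT counts stayed at 4 and 10 cells. The LSD1 KO shares fell to 0.392% (interval 0.236 to 0.611%) and 2.29% (1.73 to 2.96%). The interval of LSD1 KO replicate 1 then overlapped that of WT replicate 2. The intervals cover counting error only. Depth differed between the libraries. The cells past the filter had a median of 12835 UMIs in LSD1 KO replicate 1 and 24642 in replicate 2. In WT the medians were 14427 in replicate 1 and 9593 in replicate 2. The deeper LSD1 KO library had the higher share, while the deeper WT library had the lower share. When 10000 UMIs were drawn from each cell and shallower cells were left out, the rule found 17 of 3240 cells in LSD1 KO replicate 1 (0.525%, interval 0.306 to 0.839%) and 20 of 2025 in replicate 2 (0.988%, interval 0.604 to 1.52%). In WT it then found 2 of 2425 (0.0825%) and 7 of 2941 (0.238%). At this equal depth the intervals of the LSD1 KO replicates overlapped, and the interval of LSD1 KO replicate 1 also overlapped that of WT replicate 2, which reached 0.490%.

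**Figure D1:**
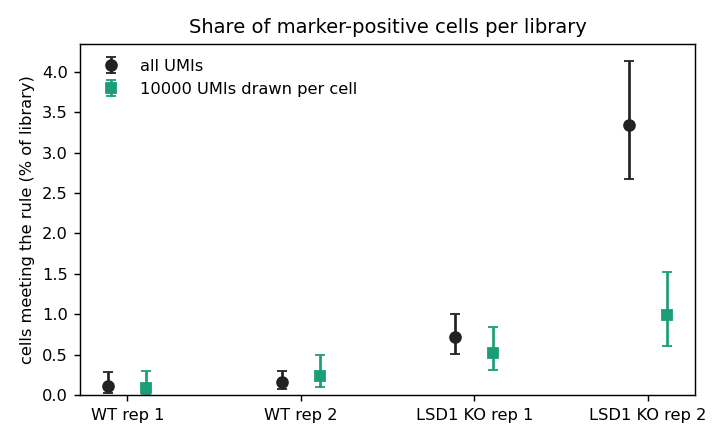
The vertical axis gives marker-positive cells as a percentage of the cells of each library, with all UMIs (circles) and with 10000 UMIs drawn per cell (squares), and bars are exact binomial 95% intervals. LSD1 KO replicate 2 stands at 3.35% with all UMIs and at 0.988% at equal depth, while the WT points lie between 0.0825% and 0.238%.

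Most cells met the rule narrowly. Of the 117 cells, 85 had UMIs in 3 of the 5 markers, 25 in 4 and 7 in all 5, and 8 cells of replicate 1 and 10 of replicate 2 held exactly 3 marker UMIs. Just outside the rule, 186 and 304 LSD1 KO cells had UMIs in 2 markers. Another 3 and 21 cells had 3 or more markers but reached the Dppa5a limit, with a median of 19.0 and 56.0 Dppa5a UMIs. Inside it, 24 of 35 and 53 of 82 cells had no Dppa5a UMI, and the highest held 6 and 8. The commonest combination was Crabp1, Sox1 and Pax6, in 32 cells (27.4%), followed by Zic1, Sox1 and Pax6 in 13 cells (11.1%). No barcode of a marker-positive cell was shared between libraries, which shared 28 barcodes in all over their 6 pairs.

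The marker levels are what chose the cells and are given as a description. Six6 was seen in 9 of 35 cells of replicate 1 and in 37 of 82 cells of replicate 2, at 40.3 and 49.4 CPM against 0.979 and 1.83 CPM in the other LSD1 KO cells. Its UMIs came from few cells: 10 cells held 68.1% of them in replicate 2, and the highest cell held 25. Zic1 was seen in 22 and 48 cells, at 52.1 and 33.3 CPM against 2.81 and 1.60 CPM. It was spread more evenly than Six6, with no cell above 3 UMIs in replicate 1 and 8 in replicate 2. Crabp1 was seen in 28 and 70 cells, at 462 and 358 CPM against 18.4 and 20.4 CPM. A few cells carried most of it, since 10 cells held 87.3% and 77.2% of its UMIs and the highest cells held 126 and 178. Sox1 was seen in 26 and 61 cells, at 68.9 and 41.7 CPM against 4.83 and 9.25 CPM, and Pax6 in 27 and 62 cells, at 52.1 and 39.2 CPM against 5.38 and 8.60 CPM. Neither went above 6 UMIs in any cell.

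The markers differed in how often pluripotent cells showed them. Among LSD1 KO cells with 10 or more Dppa5a UMIs, 330 in replicate 1 and 497 in replicate 2 with medians of 16104 and 31035 UMIs, Crabp1 had a UMI in 27.9% and 45.1%, and Pax6 in 11.2% and 26.8%. Sox1 was seen in 5.45% and 10.7% of those cells, Zic1 in 4.55% and 4.43%, and Six6 in 1.52% and 3.62%. The marker-positive cells had medians of 14414 and 30033 UMIs. In barcodes of 10 to 100 UMIs, which hold free RNA, Crabp1 was at 10.3 and 51.1 CPM, and Six6 at 4.11 CPM in replicate 1 and at 0 in replicate 2. How much free RNA added to the choice of cells was not tested.

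Zic1 set the genotypes apart over all cells. WT replicates 1 and 2 held 3 and 2 Zic1 UMIs, each in 2 cells, among 3660 and 6338 cells, whereas LSD1 KO replicates held 215 UMIs in 181 cells and 186 UMIs in 126 cells. Zic4, its neighbor, had 2 UMIs in each WT library and 57 and 70 in the LSD1 KO libraries. Six3, the closest relative of Six6, went the other way, at 18.6 and 35.8 CPM over all WT cells and 1.18 and 2.38 CPM over all LSD1 KO cells. Such a level over all cells does not tell the number of cells from the RNA per cell. Six6 itself was at 0.369 and 1.47 CPM in WT and 1.33 and 3.92 CPM in LSD1 KO, and the lower LSD1 KO value lay below the higher WT value.

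Markers outside the rule bore out the label only in part. Of 17 further neural progenitor genes, 10 averaged at least 10 CPM over both kinds of cell in both libraries, and 1, Ptn, was 2-fold or more above the other LSD1 KO cells in both replicates (log2 fold of 1 or more with 5 CPM added to both levels, the measure used for every log2 fold between cells below). The median log2 fold of those 10 genes was 0.19 and 0.29, beside 0.04 and 0.01 over all 8937 genes at that level, of which 0.582% were 2-fold or more higher in both replicates and 0.168% 2-fold or more lower. The cells were chosen on this contrast, so nothing was tested on it. Sox3, an early neural plate factor, was at 65.5 and 49.0 CPM against 21.1 and 28.6. Sox2, which acts in neural progenitors and in ESCs, had log2 folds below 1 in both. Nes, the progenitor intermediate filament gene, was at 79.0 and 71.0 CPM against 88.3 and 73.6, and Mdk, a growth factor gene, was at 1008 and 1047 CPM against 860 and 871. Hes5, a Notch target of neural progenitors, had 2 and 4 UMIs (3.36 and 1.46 CPM). Pou3f2 and Pou3f3 had no UMI in replicate 1 and 11 UMIs each in replicate 2 (4.03 CPM), and Pou3f4 had 0 and 3. At least 2 of the pluripotency markers Pou5f1, Nanog, Utf1, Tdgf1 and Zfp42 were seen in 22 of 35 and 50 of 82 cells, 62.9% and 61.0%, against 79.6% and 85.3% of the other cells. The cells were therefore named by their markers and given no cell type name.

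Ptn, which encodes the secreted growth factor pleiotrophin, led the genes that the rule did not use. It was at 331 CPM in replicate 1 (Poisson 95% interval 286 to 381) against 34.3 CPM in the other cells, and at 554 CPM in replicate 2 (527 to 583) against 52.9 CPM, log2 folds of 3.10 and 3.27. A Ptn UMI was present in 26 of 35 and 70 of 82 cells, 74.3% and 85.4%, against 24.2% and 41.8% of other cells. With every cell thinned to 2000 UMIs, the shares were 28.6% and 45.1% against 5.17% and 8.07%, and 1.82% and 2.62% among cells with 10 or more Dppa5a UMIs. The share of cells with Ptn was thus higher than in both kinds of other cell in each replicate, at equal depth too.

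Mest, Peg12, Igfbp5 and Col2a1 were also among the leading genes. Mest, an imprinted gene of the embryonic mesoderm and brain, was at 1262 and 1520 CPM against 246 and 311, and was seen in 34 of 35 and 82 of 82 cells. Peg12, also imprinted, was at 28.6 and 34.8 CPM against 3.18 and 5.91. Igfbp5, which binds insulin-like growth factors, was at 68.9 CPM (interval 49.4 to 93.5) and 123 CPM (111 to 137) against 6.22 and 12.8, log2 folds of 2.72 and 2.85. Col2a1, a collagen of cartilage and of early neuroepithelium, was at 63.9 and 58.9 CPM against 8.38 and 9.54, but was seen in 12 of 35 cells in replicate 1 and 55 of 82 in replicate 2.

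Zbtb16, a zinc finger repressor of neural progenitors also known as Plzf, was at 42.0 and 57.5 CPM against 4.25 and 7.81. Greb1l, a gene tied to retinoic acid and kidney development, was at 210 and 255 CPM against 49.8 and 59.2, and Id2, an inhibitor of basic helix-loop-helix factors, at 199.98 and 171 CPM against 53.2 and 40.7. Dpyd, a pyrimidine catabolism gene, was at 30.2 and 44.6 CPM against 3.91 and 8.03. The 10 leading genes outside the rule were all 2-fold or more higher in both replicates, which their choice by the lower of both folds favored. Every one of them stayed so against other cells of matched UMI total. That comparison used the same marker-positive cells, so it is a description too. In all, 52 of 8937 genes were higher by that measure, and 5 of these were the markers themselves. Of the 52, 29 were under 10 CPM in the other cells and passed the level filter only through the marker-positive cells, so they had to differ, as 6 of the 15 lower genes passed only through the other cells. Igfbp5, Zbtb16, Col2a1, Pax2, Dpyd and Peg12 were among those 29. Counts of such genes in any list are a description and support nothing.

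**Figure D2:**
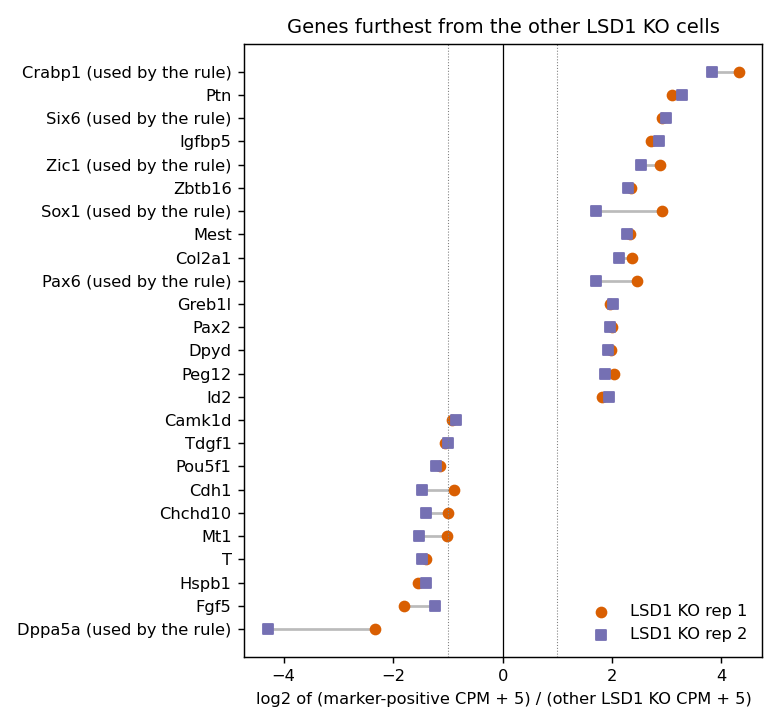
The horizontal axis gives the log2 ratio of CPM, 5 CPM added, of marker-positive to other LSD1 KO cells, with a circle for replicate 1 and a square for replicate 2, and genes that chose the cells are named as such. Ptn stands near 3 in both replicates, while the replicates differ most for Dppa5a and Sox1, both used by the rule.

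Regional factors of several positions were seen. Among 17 eye field and forebrain genes, 2 passed the level filter and neither was 2-fold higher in both replicates. Six3, below that filter, was at 8.40 CPM in replicate 1, from 5 UMIs, and 17.2 CPM in replicate 2, from 47 UMIs, against 1.12 and 1.70 CPM. Otx2, a forebrain and midbrain factor that pluripotent cells also carry, was at 30.2 and 31.1 CPM against 50.3 and 61.7, and Tcf7l2, a Wnt effector of the caudal forebrain, held the highest level of the list. Rax, Hesx1 and Fezf1 were at 2 CPM or less in both replicates. Shh and Nkx2-1, of the ventral midline and hypothalamus, had no UMI in the marker-positive cells, and none of the 12 ventral neural tube genes passed the filter.

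Of 12 genes of the midbrain and its boundary with the hindbrain, 5 passed the filter, and Pax2, Pax5 and Gbx2 did so only through the marker-positive cells. Pax2, a boundary and optic stalk factor, was at 20.2 and 19.4 CPM against 1.31 and 1.28, from 12 and 53 UMIs. Pax5 was at 21.8 and 15.4 CPM against 3.44 and 5.17, and Gbx2, which sets the hindbrain side of the boundary, at 26.9 and 35.1 CPM against 4.24 and 8.38. Fgf8, the signal made at that boundary and in the primitive streak, was at 94.1 and 62.2 CPM against 156 and 68.1. Hoxb2, which specifies hindbrain segments and passed in the same way, was at 33.6 and 10.2 CPM against 6.67 and 2.12.

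Dorsal and proneural genes gave few members. Of 15 dorsal neural tube genes, 4 passed, and Pax3 did so only through the marker-positive cells, at 15.1 and 26.0 CPM against 4.65 and 4.38. Zic2, a relative of Zic1, was at 63.9 and 93.3 CPM against 71.7 and 84.3. Among 16 proneural genes, Neurog1, Neurog2 and Atoh1, which start neuron formation, had no UMI, and Ebf2 passed only through the marker-positive cells, at 20.2 and 42.8 CPM against 4.27 and 5.04. Sox11 and Sox4, factors of late progenitors and young neurons, were at 272 and 279 CPM against 168 and 160, and at 215 and 285 CPM against 110 and 126. Of 19 neuron genes, 11 passed and 0 were 2-fold higher or lower in both replicates, and Stmn2 was at 434 and 438 CPM against 373 and 324.

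Signalling genes moved little as lists. Of 6 retinoic acid genes past the filter, Crabp2, the second cytoplasmic binding protein, was higher in both, at 48.7 and 36.2 CPM against 10.7 and 10.3, and Aldh1a2, which makes retinoic acid, had 0 and 1 UMI. Of 8 FGF genes past the filter, Fgf15, an FGF of the early neural tube that passed only through the marker-positive cells, was at 62.2 and 26.7 CPM against 4.95 and 7.62, and Fgf5, a ligand of primed pluripotent cells, was lower at 13.4 and 25.3 CPM against 59.2 and 66.6. Of 12 BMP and Nodal genes past the filter Id2 was the 1 gene past 2-fold, and of 10 Wnt, 8 Notch and 7 Hedgehog genes 0 were. Gli3 and Gli2, the Hedgehog effectors, were at 168 and 154 CPM against 109 and 89.4, and at 101 and 58.9 CPM against 39.6 and 42.5. Of 15 adhesion and matrix genes past the filter, Efnb1, an ephrin, was higher in both replicates, at 58.8 and 34.4 CPM against 14.1 and 13.0.

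Pluripotency RNA was lower but remained. Of 10 pluripotency genes, 2 were 2-fold or more lower in both replicates, Pou5f1 at 45.4 and 43.9 CPM against 106 and 108, and Tdgf1, the Nodal co-receptor, at 212 and 197 CPM against 445 and 400. Nanog was at 67.2 and 57.1 CPM against 62.5 and 77.1, on opposite sides of the other cells in the 2 replicates. L1td1 was the most abundant of the list, at 232 and 208 CPM against 296 and 353. Summed over the list, the median cell held 815 and 651 CPM against 1255 and 1395, and 10 of 35 and 14 of 82 marker-positive cells were above the median of the other cells. The 17 neural progenitor genes outside the rule, summed in the same way, were at a median of 1913 and 2108 CPM against 1381 and 1314, with 26 of 35 and 74 of 82 cells above the median of the others. Mdk and Ptn were the most abundant members, and Nes (values above) and Ncam1, at 65.5 and 58.6 CPM against 76.1 and 67.1, were lower than in the other cells in both replicates. Over the summed UMIs of each library, the 17 genes were at 1934 and 2193 CPM against 1425 and 1361. The 15 genes without Ptn and Mdk were at 595 and 591 CPM against 530 and 437. Most of the higher sum was thus Ptn, itself picked on this contrast, and Mdk.

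**Figure D3:**
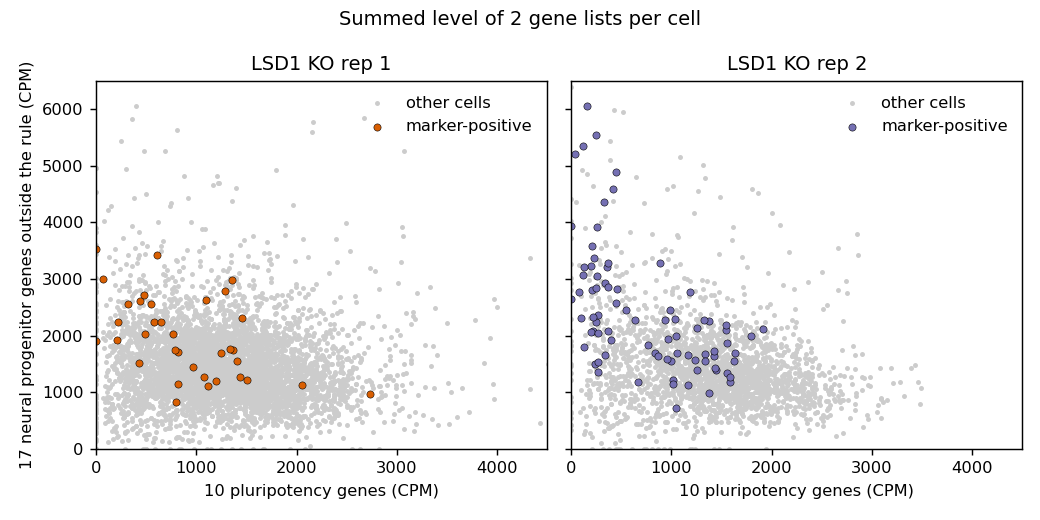
Each point is an LSD1 KO cell of replicate 1 (left) or replicate 2 (right), with the summed CPM of 10 pluripotency genes on the horizontal axis and of 17 neural progenitor genes outside the rule on the vertical axis; 18 other cells lie outside the axes. Marker-positive cells of replicate 2 spread from cells with little pluripotency RNA and a high neural sum to cells within the main cloud, where many cells of replicate 1 also lie.

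T and Eomes, factors of the primitive streak, had lower summed levels in the marker-positive cells. Of 11 primitive streak genes, 5 passed the filter, Mixl1 and Lhx1 only through the other cells, and T and Eomes were also 2-fold or more lower in both replicates. T, the streak factor Brachyury, was at 99.2 and 15.7 CPM against 271 and 52.9. A T UMI was seen in 34.3% of marker-positive cells against 57.7% of other cells in replicate 1. In replicate 2 these shares were alike, 24.4% against 24.2%. Eomes was at 13.4 and 10.98 CPM against 89.8 and 32.9. Mixl1 had 1 UMI in replicate 1 and 0 in replicate 2, against 57.8 and 8.92 CPM in the other cells, and Lhx1 had 1 and 3 UMIs against 67.0 and 11.03 CPM. The streak genes were thus more abundant in the other cells of replicate 1 than of replicate 2. Other low genes were Hspb1, a small heat shock protein, at 55.5 and 45.4 CPM against 172 and 128, Mt1, a metallothionein, at 388 and 353 CPM against 793 and 1022, Chchd10, a mitochondrial gene, at 155 and 126 CPM against 312 and 341, Cdh1, the epithelial cadherin, at 43.7 and 29.6 CPM against 85.2 and 91.7, and Camk1d, a calcium-dependent kinase, at 62.2 and 64.4 CPM against 123 and 119.6.

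The endothelial, endoderm and cardiac markers checked here were near 0, but other genes of the cardiac list were not. None of the marker-positive cells held UMIs of 2 or more of the endothelial markers Cdh5, Tie1, Pecam1 and Kdr, of the endoderm markers Sox17, Foxa1, Cldn6, Ttr, Apom and Apoa1, or of the cardiac markers Hand1, Hand2 and Tnnt2. Few other LSD1 KO cells did either, 0.436% and 0.676% for endothelial, 1.58% and 2.70% for endoderm and 0.125% and 0.0845% for cardiac markers. With shares that low, finding no such cell among 35 and 82 does not set the marker-positive cells apart. The endothelial markers summed to 3.36 and 2.56 CPM, the endoderm markers to 5.04 and 8.42 CPM, and the cardiac markers to 0 and 0.366 CPM. Mef2c, which the study used as a mesoderm marker, was at 20.2 and 22.7 CPM against 13.5 and 13.1. Gata4 was at 11.8 and 8.42 CPM against 10.1 and 8.87. All 12 genes of the cardiac list summed to 40.3 and 44.3 CPM against 65.9 and 41.2. At least 2 of the neural crest markers Sox10, Foxd3 and Tfap2a were seen in 1 and 3 cells, 2.86% and 3.66%, against 0.166% and 1.48% of the other cells. At least 2 of the mesenchyme markers Foxc2, Pdgfra and Col3a1 were seen in 1 and 0 cells, 2.86% and 0%, against 0.0831% and 0%. At least 2 streak markers of 4 (Mixl1, Mesp1, T and Eomes) were seen in 5 of 35 and 8 of 82 cells, 14.3% and 9.76%, against 35.7% and 14.5% of the other cells. At least 2 of the neuron markers Nefm, Tubb3, Stmn2 and Dcx were seen in 68.6% and 89.0% against 51.2% and 58.2%. Depth moved with those shares, and Dcx, the marker of young neurons, was at 3.36 and 1.10 CPM, from 2 and 3 UMIs. Doublets were not removed, and 3 and 9 marker-positive cells, 8.57% and 10.98%, had more UMIs than the 95th percentile of their library. Without the cells above that percentile, the 10 leading genes outside the rule stayed 2-fold or more higher in both replicates. Those genes were picked on this same contrast and most of the cells were kept, so this is a description. The part of doublets was not tested.

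The remaining lists held few 2-fold differences among genes past the level filter. All 18 replication and mitosis genes passed the filter, 0 were 2-fold different, and their median log2 fold was 0.10 and 0.02. Top2a was the most abundant at 662 and 587 CPM against 540 and 573. Of 12 cell-cycle brake and p53 target genes past the filter 0 were 2-fold different, with medians of −0.21 and −0.23, and Cdkn1a was at 141 and 111 CPM against 204 and 143. Of 10 genes of the CoREST complex and its partners, with which LSD1 works, 0 were 2-fold different, and Hdac2 was at 136 and 127 CPM against 107 and 109. Of 8 stress genes, 5 surface ectoderm and placode genes, 3 neural crest genes, 2 germ cell genes and 1 gene each of the naive pluripotency, cardiac and paraxial mesenchyme lists past the filter, 0 were 2-fold different in both replicates, and of 11 formative pluripotency genes Fgf5, given above, was the 1 such gene. Of the 8 stress genes, 7 were lower than in the other cells in both replicates, with medians of −0.47 and −0.16. The 12 naive pluripotency genes, of which Klf5 alone passed, summed to 45.4 and 26.3 CPM against 79.4 and 83.5. Klf2 and Dppa3, under the filter, were 2-fold or more lower in both replicates.

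**Figure D4:**
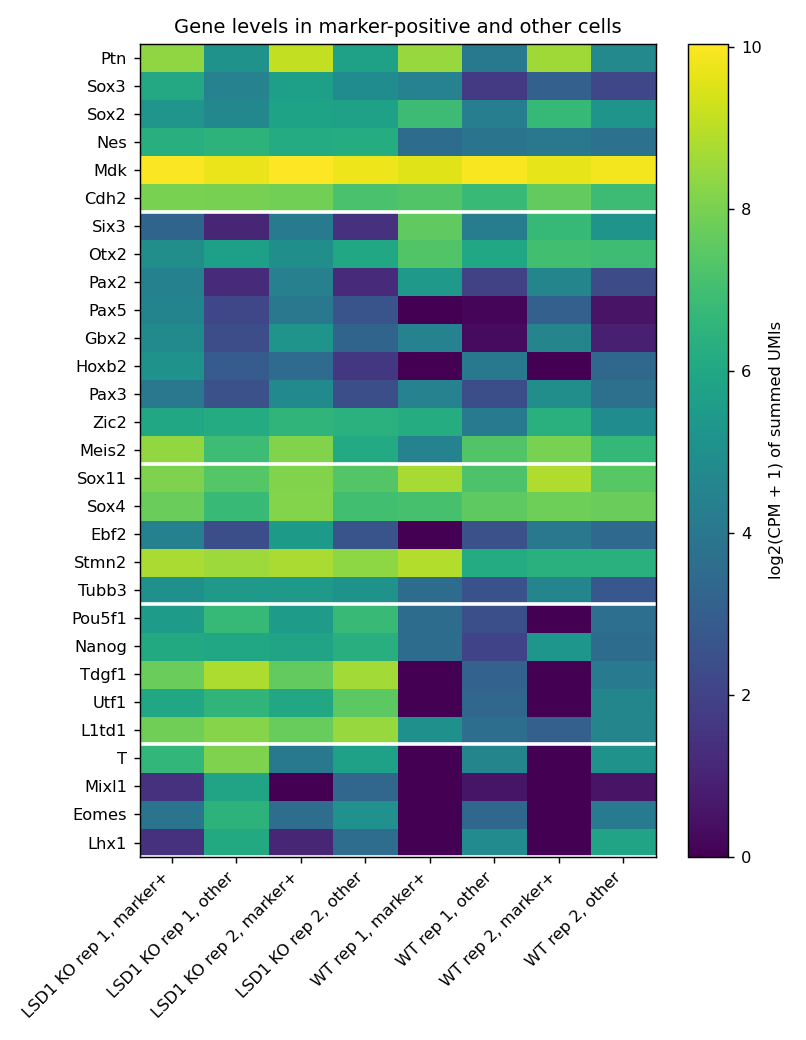
Colour gives log2(CPM + 1) of summed UMIs for selected genes (rows, parted by white lines into neural genes outside the rule, regional factors, proneural and neuron genes, pluripotency genes and streak genes) in marker-positive and other cells of each library (columns). Tdgf1 and Pou5f1 stay visible in the LSD1 KO marker-positive columns, and the WT marker-positive columns rest on 4 and 10 cells.

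The marker-positive cells were not alike among themselves. They were parted by how many marker UMIs they held, 6 or more in 16 and 50 cells and 3 to 5 in 19 and 32 cells. Median depth was close between these, 15237 and 28658 UMIs for the first and 13968 and 30571 for the second. Ptn was at 561 CPM (interval 475 to 658) and 790 CPM (748 to 834) in cells with 6 or more marker UMIs and at 141 CPM (103 to 188) and 188 CPM (163 to 216) in the others. Mest was at 1966 and 2025 CPM against 681 and 738, and Id2 at 286 and 232 CPM against 129 and 74.6. Pou5f1 lay the other way at 29.7 and 28.3 CPM against 58.3 and 68.1, as did Utf1 at 37.2 and 36.7 CPM against 85.9 and 107. The marker UMIs also chose the cells, so these values are a description.

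The cells were also placed by their other genes, with the 6 genes of the rule left out. For each marker-positive cell the 20 nearest LSD1 KO cells were found over 2000 variable genes summarised in 30 principal components. Marker-positive cells were 1.60% of the cells of both libraries together, a share that amounts to 0.32 of 20 neighbors. The median number of marker-positive neighbors was 2.0 in replicate 1 and 3.5 in replicate 2. Of the cells, 10 of 35 and 39 of 82 had 5 or more, while 9 and 18 cells had none. Of the 66 cells with 6 or more marker UMIs, 39 (59.1%) had 5 or more such neighbors and 5 had none. Of the 51 cells with 3 to 5 marker UMIs, 10 (19.6%) had 5 or more and 22 had none. Neighbors came from the other library in 48.0% of cases for replicate 1 and 29.5% for replicate 2. The libraries were of unequal size, 4850 cells in replicate 1 and 2450 in replicate 2. Cells of replicate 2 had mostly neighbors of their own library although it was the smaller one, so neighbors were not drawn evenly from both. The pooled share of 1.60% does not allow for this, and replicate 2 alone held 3.35% marker-positive cells.

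**Figure D5:**
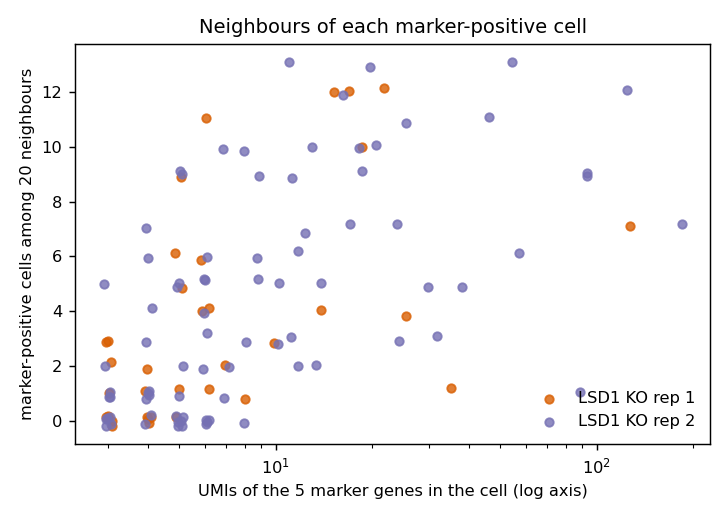
Each point is a marker-positive cell of LSD1 KO replicate 1 or 2, with its UMIs of the 5 marker genes on a logarithmic horizontal axis and the number of marker-positive cells among its 20 nearest neighbors, found without the rule's genes, on the vertical axis. Cells with 0 such neighbors lie mainly at 3 to 6 marker UMIs, and the highest number was 13.

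Six6 was seen in cells with and without abundant Crabp1. Of 23 cells with 10 or more Crabp1 UMIs, 8 (34.8%) had Six6, and of the other 94 cells 38 (40.4%) had it. Cells with Six6, 9 and 37 in the replicates, held Igfbp5 at 183 CPM (interval 124 to 262) and 233 CPM (207 to 262) against 25.5 CPM (12.7 to 45.6) and 30.4 CPM (22.2 to 40.6) in cells without it. Cdh6, a cadherin of the early neural plate, was at 85.6 and 131 CPM against 13.9 and 47.2, Meis1, a homeobox cofactor, at 85.6 and 95.1 CPM against 16.2 and 27.0, and Col2a1 at 159 and 91.1 CPM against 27.8 and 31.7. Mt1 was lower in the cells with Six6, at 159 and 183 CPM against 475 and 496. Igfbp5 was thus concentrated in the Six6 cells of both replicates. Six3 was at 18.3 and 26.4 CPM against 4.64 and 9.45, from 3 and 33 UMIs. The 6 and 17 cells with 10 or more Crabp1 UMIs held Crabp2 at 183 and 86.6 CPM against 20.4 and 25.05, Erbb4, a neuregulin receptor, at 96.1 and 92.6 CPM against 24.4 and 12.1, and Hoxb2 at 67.3 and 34.2 CPM against 26.5 and 4.92. In replicate 1 these levels rested on 19, 10 and 7 UMIs, and the Hoxb2 intervals overlapped there (27.1 to 139 against 14.1 to 45.3). Lefty2, a Nodal antagonist, was in them at 19.2 and 8.05 CPM, from 2 and 4 UMIs, against 89.6 and 78.3. In these cells Igfbp5 did not go the same way in both replicates, at 28.8 and 238 CPM against 77.4 and 97.9. Cdh6, Meis1, Erbb4, Lefty2 and Utf1 were chosen after their values were seen.

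The 14 WT cells that met the same rule held another mix of markers. Six6 was at 73.8 and 263 CPM and Sox1 at 105 and 135 CPM, but these 14 cells held no Zic1 UMI. Ptn was high in them too, at 358 and 383 CPM against 15.8 and 25.6 in other WT cells. Six3 was at 190 and 105 CPM, from 18 and 14 UMIs, above both LSD1 KO values. Tdgf1 had no UMI, and Pou5f1 had 1 and 0 UMIs, where the LSD1 KO marker-positive cells held 27 and 120 Pou5f1 UMIs (45.4 and 43.9 CPM). The WT sums were far smaller, 94864 and 133180 UMIs against 595048 and 2732536, so these counts cannot be set side by side as they stand. With 4 and 10 cells, no test between the genotypes was run within the marker-positive cells.

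To set the leading genes against the rest of the EB, the genotypes were compared among cells that did not meet the rule, with UMIs summed per library and edgeR's quasi-likelihood test (Benjamini-Hochberg adjusted, threshold 0.05). Of 16907 genes, 22.6% were called higher and 21.7% lower in LSD1 KO. Of the 10 leading genes outside the rule, 0 were called higher and 6 lower, Igfbp5, Zbtb16, Col2a1, Greb1l, Pax2 and Id2. The leading genes had been picked by their level against these same other LSD1 KO cells. That choice favors calls of lower among the rises and of higher among the falls, so these counts are a description. Greb1l had a log2 fold change of −3.00 (SE 0.13, adjusted p = 0.000349), with 413 and 387 CPM in other WT cells, above the 210 and 255 CPM of LSD1 KO marker-positive cells. Igfbp5 had −3.78 (SE 0.39, adjusted p = 0.00166), with 145 and 95.5 CPM in other WT cells, near the 68.9 and 123 CPM of the marker-positive cells. Zbtb16 had −3.61 (SE 0.35, adjusted p = 0.00144). Ptn did not pass, at 0.94 (SE 0.31, adjusted p = 0.0565), nor did Mest at 0.38 (SE 0.34, adjusted p = 0.404), Dpyd or Peg12. Among the 9 leading low genes outside the rule, 7 were called higher in other LSD1 KO cells than in other WT cells, Tdgf1 among them at 4.95 (SE 0.41, adjusted p = 0.000973), while Cdh1 was called lower. With library totals in place of TMM factors, 64.6% in place of 51.1% of all calls were higher in LSD1 KO, and the median log2 fold change of all genes moved from 0.00 to 0.12. The genotype difference in the other cells was tested gene by gene, on LSD1 KO sums that had also helped to choose these genes. Whether that difference is another one in marker-positive cells was not tested.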

How the data were processed

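Day 6 EBs of WT and LSD1 KO ESCs, 2 libraries each, were profiled by 3′ droplet scRNA-seq. Alignment and UMI counting by the authors used Cell Ranger 7.1.0 with its defaults and, per the submitters' processing notes, mm9, and they deposited raw UMI counts for every barcode, of 72285943 to 75406512 UMIs per library. The study used Seurat 4.3.0, which was not used here. The gene annotation is not given in the sources used here. Positions of genes were read from GENCODE M1 (NCBIM37, the assembly of mm9).

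The members and gene lists were chosen with earlier results of these data known. Barcodes with 2000 UMIs and 1000 genes were kept, with no doublet removal. UMIs were summed per library over marker-positive and other cells and scaled to CPM by their own totals. Log2 folds used 5 CPM added; genes averaging 10 CPM over the 4 LSD1 KO sums were counted. Named genes are the rule's genes, the 15 with the largest lower-of-both-libraries fold among genes seen in at least 10% of marker-positive cells, the 10 with the largest fall among genes at 50 CPM or more in other cells, and up to 4 of the highest members of each list; other list members account for small counts or were chosen after their values were seen. Intervals are exact (95%) and cover counting error only. The planned test between genotypes within marker-positive cells asked for 20 cells per library and was not run. The test among other cells used edgeR 4.0.16 in R 4.3.3 with TMM and filterByExpr, with DESeq2 1.42.0 as an alternative, and its p-values measure the spread between 2 libraries per genotype. Scripts were tested on simulated data. Neighbors were found in Python 3.11.15 with scipy 1.17.1. A few genes of the lists are not reported here.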

Additional observations from a re-analysis of the deposited data

Results flagged for a closer look

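For 6 of the genes named by the rule on named genes, with at least 20 UMIs in the WT marker-positive cells, both LSD1 KO libraries lay on the side of 0 opposite to both WT libraries when marker-positive cells were set against other cells; the difference was not tested, and the WT values rest on 4 and 10 cells. Otx2 had log2 folds of −0.65 and −0.89 in LSD1 KO (mean −0.77) and 1.29 and 0.07 in WT, where the second is close to 0. Cdkn1a had a mean of −0.44 in LSD1 KO and 1.66 and 0.55 in WT. Sall4 had a mean of −0.18 in LSD1 KO and 0.93 and 0.24 in WT, Bax −0.18 and 0.82 and 0.07, and Mdm2 −0.25 and 0.23 and 0.40. Mdk had a mean of 0.25 in LSD1 KO and −0.41 and −0.21 in WT. The search ran over the 138 named genes without those the rule used. How many of them reached 20 UMIs, and how often the pattern arises over all genes, was not counted. The count of 6 is therefore a description and supports nothing.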

How the results depend on the processing

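The share of marker-positive cells depended on depth and on the markers asked for. In LSD1 KO replicates 1 and 2 it was 0% and 0.0408% with the rule applied after thinning to 2000 UMIs, 0.124% and 1.06% with 4 of 5 markers, 0.392% and 2.29% without Zic1, 0.268% and 1.43% without Crabp1, 0.268% and 1.84% without Sox1, and 0.268% and 1.63% without Pax6 among the markers. In replicate 2 it was 4.20% without the Dppa5a limit and 0.988% at 10000 UMIs, an alternative chosen after seeing the data. The other settings run left it within its interval. The thinned rule left 0 cells in replicate 1, so folds of genes were not computed for it. The 52 genes higher and 15 lower by 2-fold became 103 and 44 when only cells with 6 or more marker UMIs were used, and 24 were lower without cells above the 95th UMI percentile, both chosen after seeing the data. With a single LSD1 KO library they were 85 to 106 and 38 to 110, so more genes passed in 1 library than in both. Of 966 values of 138 named genes under alternatives, 0 turned the direction of a 2-fold difference and 151 moved by more than the spread between replicates. The 3824 genes higher and 3662 lower by genotype among other cells were 2544 to 3229 and 2297 to 3104 with a library left out, lowest without WT replicate 1 for the higher ones and without LSD1 KO replicate 2 for the lower ones. With the replicate number as a block they were 4256 and 4084. The numbers are shared labels only: the difference between replicates correlated at 0.20 over genes between the genotypes, from 2 pairs. The alternatives set out for the test within marker-positive cells and for its interaction were not run, since those tests were not.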
